A study of Mus musculus with 9 samples.

Results

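Autophagy machinery and receptors were followed as a set of 40 mouse genes, chosen by name and found by gene ID in both expression tables. They are 40 of the 21820 genes that the tables share, and all 40 had enough reads to be compared in both. The study measured messenger RNA by sequencing in 9 libraries of C57BL mouse cells, 4 of macrophages grown from bone marrow (bone-marrow-derived macrophages, BMDM) and 5 of Lewis lung carcinoma (LLC), an established mouse tumour cell line. The study's title names endoplasmic reticulum (ER) stress that passes between macrophages and tumour cells. Each of the 9 groups held 1 library, so the data hold no replicate of any condition.

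The macrophage groups were GM-BMDM given tunicamycin for 4 h, M-BMDM given tunicamycin for 4 h, and each of these 2 kinds left untreated; GM and M are the labels' names for the kinds. Tunicamycin blocks N-linked glycosylation and so burdens the ER with unfolded protein. Of the LLC groups, 4 were cells kept for 24 h in medium conditioned by macrophages. The donors were GM-BMDM stressed with tunicamycin for 12 h, M-BMDM stressed in the same way, unstressed GM-BMDM, and unstressed M-BMDM. The remaining LLC group had no conditioned medium (untreated), and the labels give neither its culture time nor how it was fed. Donor cells were washed after tunicamycin and conditioned fresh medium for 16 h. Medium of stressed donors is called stressed medium here. The labels name no deleted or added gene.

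Autophagy encloses part of the cytoplasm in a new double membrane, the autophagosome, which then fuses with the lysosome. An initiation kinase complex around ULK1 or ULK2 starts the process, a lipid kinase complex around VPS34 marks the membrane, and lipid carriers and scaffolds let it grow. Conjugation enzymes attach proteins of the ATG8 family (the LC3 and GABARAP proteins) to the membrane, and cargo receptors bind both these proteins and the cargo, often ubiquitin-tagged protein. In macrophages the pathway handles engulfed microbes and worn organelles, and in stressed cells it clears misfolded protein. Most of its control acts on the proteins, so mRNA levels say nothing of the rate of autophagy.

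The BMDM libraries held 37695079 to 42751176 counted reads and the LLC libraries 15020068 to 17128471. Of 7 macrophage markers, 7 reached at least 1 CPM (reads scaled to a common library size) in each BMDM library, with summed levels of 30410 to 49444 CPM. Lyz2 gave most of each sum, at 21849 to 39136 CPM. Between the untreated libraries, Csf1r had 1002 CPM in GM-BMDM and 5517 CPM in M-BMDM. Adgre1 had 470 and 3163 CPM there, and Fcgr1 92.1 and 264 CPM. Itgam alone lay the other way, at 365 and 144 CPM. In LLC the macrophage markers summed to 12.7 to 23.9 CPM, with Adgre1 and Itgam at 0 in all 5 libraries. Of 5 epithelial markers, Krt8 and Krt18 carried nearly all of the 363 to 526 summed CPM in LLC, while Krt19 was at 0 in all 5 libraries. In bulk RNA, fewer cells of a type and less RNA per cell cannot be told apart. Markers of other blood cells also differed between the kinds of macrophage. Neutrophil markers summed to 1607 and 1679 CPM in the GM-BMDM libraries, against 31.7 and 50.3 CPM in those of M-BMDM. Mmp8 alone gave 1485 and 1459 CPM of the GM-BMDM sums. Of the 9 markers, 6 reached 1 CPM with tunicamycin in GM-BMDM and 8 untreated, against 3 in each M-BMDM library. Between the untreated libraries, S100a8 had 63.1 CPM in GM-BMDM and 1.74 CPM in M-BMDM, and S100a9 71.8 and 1.58 CPM. Ngp had 46.0 and 0.268 CPM there, and Ltf 31.5 and 0.671 CPM. Ly6g, a defining neutrophil marker, stood at 0.377 CPM with tunicamycin and 0.571 CPM untreated in GM-BMDM. Mast cell, basophil and eosinophil markers summed to 105 and 137 CPM in GM-BMDM, most of it Siglecf and Kit, against 1.28 and 1.66 CPM in M-BMDM. In untreated GM-BMDM Siglecf had 93.9 CPM and Kit 35.6 CPM, while Cpa3, Fcer1a, Mcpt8 and Prg2 had 0.596 to 3.48 CPM. Lymphocyte markers summed to 0.589 and 0.671 CPM in GM-BMDM, against 8.01 and 8.21 CPM in M-BMDM, nearly all of it Cd4. Their part in the results on GM-BMDM against M-BMDM was not tested.

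The member that moved most in macrophages was Sqstm1, which encodes p62, the receptor that gathers ubiquitin-tagged protein for autophagy. Its promoter is shown because no other member differed by 2-fold with tunicamycin. The 300 bases run from 250 before to 50 after the RefSeq start, on the minus strand of GRCm38.p6 at chr11:50210771-50211070, with the only hit to a searched motif, TATAAA, in capitals. That hit begins at an offset of -1 from the RefSeq start, so it runs across the start.
Sqstm1: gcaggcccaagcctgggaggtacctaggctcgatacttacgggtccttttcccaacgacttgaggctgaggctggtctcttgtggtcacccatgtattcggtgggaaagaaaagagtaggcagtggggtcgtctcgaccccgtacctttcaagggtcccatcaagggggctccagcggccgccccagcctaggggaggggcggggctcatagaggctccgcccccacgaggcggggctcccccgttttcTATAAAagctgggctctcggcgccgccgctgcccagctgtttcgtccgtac
The motifs searched, on both strands, were CACGTG, the core of the CLEAR element bound by the lysosomal regulator TFEB, TGATGNAA, a form of the site for ATF4 dimers, TGACNNNGC, the core of the antioxidant response element bound by NRF2, and TATAAA. The first 3 are not in this window. Of 32851 mouse promoters of this length, 7.15% hold CACGTG, 3.97% TGATGNAA, 12.4% TGACNNNGC and 13.6% TATAAA. The match is a description of letters in 1 window and not of a bound site.

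Levels between genes were compared as FPKM, which divides reads by gene length. Gabarap, the founding member of one ATG8 branch, led in GM-BMDM at 317 FPKM with tunicamycin and 327 FPKM untreated, followed by Sqstm1 at 174 and 153 FPKM. In M-BMDM the order of these genes was turned round, with Sqstm1 at 753 FPKM with tunicamycin and 324 FPKM untreated, and Gabarap at 239 and 274 FPKM. All 5 LLC libraries had the same first 3 members, with Sqstm1 at 217 to 307 FPKM, Gabarap at 59.2 to 88.7 FPKM and Tax1bp1, another cargo receptor, at 33.3 to 38.4 FPKM. Atg16l2, a paralogue of the conjugation scaffold Atg16l1, was the lowest member in the 5 LLC libraries and in both of GM-BMDM, at 1.12 to 1.90 FPKM. The median member stood at 8.28 to 12.3 FPKM in BMDM and 8.51 to 9.72 FPKM in LLC, against 6.35 to 7.33 and 8.25 to 8.46 FPKM for all genes compared.

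Most members kept a narrow range of CPM within a table. In BMDM 23 of 40 spanned less than 1.5-fold over the 4 libraries and 4 spanned 2-fold or more, from 1.11-fold for Map1lc3a, an LC3 protein, to 4.41-fold for Sqstm1. In LLC 33 of 40 spanned less than 1.5-fold and 4 spanned 2-fold or more, from 1.09-fold for Ulk1 to 3.23-fold for Tecpr1. These spans include the counting error, which was widest for the lowest counts, 25 reads of Map1lc3a in LLC. The share of all genes with such spans was not computed, so the narrow range is not read as particular to the members. Over 7 pairs of libraries, the members' median absolute log2 difference was 0.10 to 0.31, beside 0.11 to 0.38 for all genes compared.

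**Figure D1:**
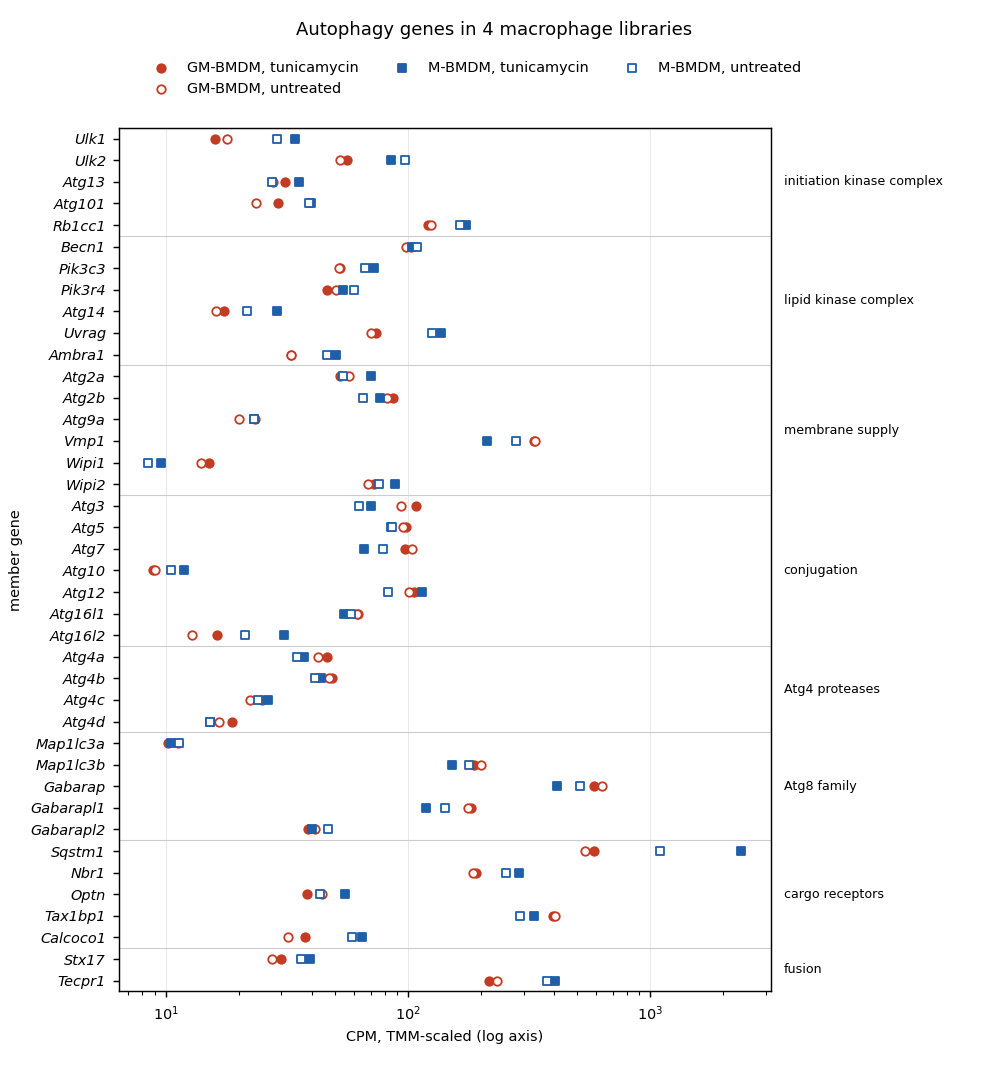
Level of each of the 40 members in the 4 macrophage libraries, as TMM-scaled CPM on a log axis, grouped by role. Each symbol is 1 library; Sqstm1 with tunicamycin in M-BMDM stands apart at 2373 CPM, and the 4 libraries of most other members lie close together.

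With tunicamycin in GM-BMDM, no member differed by 2-fold in either direction. Over all 11049 genes compared in BMDM, 0.0634% were higher by 2-fold or more with tunicamycin in this pair, and 0.443% were lower by as much. Differences between 2 libraries are given as log2(CPM + 1), which understates those of low genes, and a fold of 2 is a difference of 1. The members' differences ran from -0.20 for Optn to 0.32 for Atg16l2, with a median of 0.04 beside 0.00 for all genes. Of the stress genes in the same pair, Ddit3, which encodes the regulator CHOP, stood at 44.3 CPM with tunicamycin and 13.5 CPM untreated, and Trib3, one of its targets, at 13.5 and 2.51 CPM.

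With tunicamycin in M-BMDM, Sqstm1 was the 1 member past 2-fold. It stood at 2373 CPM with tunicamycin, against 1102 CPM untreated, a 2.15-fold ratio (95% counting interval 2.13 to 2.18) and a log2 difference of 1.11. In GM-BMDM it stood at 588 CPM with tunicamycin, against 538 CPM untreated, a 1.09-fold ratio (1.07 to 1.11) and a log2 difference of 0.13. Both M-BMDM libraries lay above both GM-BMDM libraries. In the M-BMDM pair 1.18% of all genes compared passed 2-fold upwards and 0.29% downwards. Sqstm1 lies on chromosome 11 from 50199366 to 50210827 on the minus strand of GRCm38. It overlaps the opposite-strand gene Mrnip over 750 bases, and Mrnip reached 2.86 CPM at most in BMDM.

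The other 4 cargo receptors of the M-BMDM pair also lay above 0, though by much less. Nbr1, a receptor related to p62, stood at 288 CPM with tunicamycin and 255 CPM untreated. Tax1bp1 stood at 330 and 290 CPM, and Optn, the receptor optineurin, at 55.1 and 43.4 CPM. Calcoco1, a receptor for parts of the ER and Golgi, had 64.3 CPM with tunicamycin and 58.8 CPM untreated. The ATG8 family pointed the other way, with 5 of 5 members below 0 and a median of -0.24. In the GM-BMDM pair 4 of the 5 also lay below 0, with a median of -0.10. Of all genes compared, 50.8% lay above 0 in the M-BMDM pair and 50.3% in the GM-BMDM pair. In M-BMDM Gabarap had 414 CPM with tunicamycin and 511 CPM untreated, a ratio of 0.810 (0.794 to 0.827). Map1lc3b, the LC3 protein most used as an autophagosome marker, had 152 and 179 CPM, and Gabarapl1, a close relative of Gabarap, 119 and 142 CPM. Gabarapl2 had 40.2 and 46.8 CPM, and Map1lc3a 10.5 and 11.3 CPM. With scaling by total counts in place of TMM, Map1lc3a came to -0.00 and the other 4 stayed below 0; this scaling moved the median of all genes in this pair to 0.10, beside 0.00.

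Smaller differences in the M-BMDM pair were spread over several roles. Atg12, the ubiquitin-like protein that joins ATG5, had 114 CPM with tunicamycin and 82.7 CPM untreated, a 1.38-fold ratio (1.32 to 1.45). Atg16l2 had 30.8 and 21.2 CPM, a 1.45-fold ratio (1.33 to 1.59). Atg14, a subunit of the lipid kinase complex, had 28.7 and 21.7 CPM, a 1.33-fold ratio (1.21 to 1.45), and Atg13, of the initiation complex, 35.6 and 27.3 CPM, a 1.30-fold ratio (1.20 to 1.41). These intervals cover counting error only. Vmp1, an ER membrane protein that moves lipids at the site of autophagosome formation, had 212 CPM with tunicamycin and 280 CPM untreated, the lowest difference of any member (-0.40). Over the 40 members, 28 lay above 0 and 12 below, with a median of 0.12 beside 0.00 for all genes. Of all genes compared, 50.8% lay above 0 in this pair.

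An additive fit over the 4 macrophage libraries (edgeR, quasi-likelihood, with p adjusted over all genes by Benjamini-Hochberg) took the disagreement of the 2 kinds as its error. It called no member and 0% of all genes for tunicamycin at an adjusted p under 0.05. At an unadjusted p under 0.05 it held 1103 of 11049 genes and 2 members. Sqstm1 had a log2 fold change of 0.62 ± 0.23 (SE; unadjusted p = 0.032, edgeR adjusted p = 0.48) and lay above 0 in 2 of 2 kinds. Atg16l2 had 0.44 ± 0.13 (unadjusted p = 0.013, edgeR adjusted p = 0.46), also in 2 of 2 kinds. DESeq2 on the same design called no member and 52 genes, 19 up and 33 down. Atg16l2 overlaps the opposite-strand gene Fchsd2 over 21372 bases, and Fchsd2 reached 56.8 CPM in BMDM, above the 30.8 CPM of Atg16l2. The sources used here do not give the strand setting of the authors' counting, so reads of the 2 genes may not be separated.

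The kinds of macrophage differed far more than the treated and untreated libraries. In the same additive fit, 14 of 40 members were lower in GM-BMDM than in M-BMDM and 7 were higher (edgeR adjusted p under 0.05). That is 35.0% and 17.5% of the members, beside 25.0% of all genes that fell and 25.4% that rose. Each effect is that of 2 libraries against 2, and the blood cell markers above moved with it. The untreated libraries alone gave 1 member at least 2-fold lower in GM-BMDM and none at least 2-fold higher, beside 7.02% and 12.4% of all genes.

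The genes that start autophagy were among those that fell. In the initiation kinase complex 4 of 5 fell, and Atg13, its regulatory subunit, did not pass (-0.09 ± 0.13). Ulk1, the kinase itself, had 15.9 CPM with tunicamycin and 17.9 CPM untreated in GM-BMDM, against 34.1 and 28.7 CPM in M-BMDM, a log2 fold change of -0.89 ± 0.15 (edgeR adjusted p = 0.0025). Its paralogue Ulk2 had 56.1 and 52.5 CPM in GM-BMDM, against 84.7 and 96.8 CPM in M-BMDM (-0.74 ± 0.12, edgeR adjusted p = 0.0028). For both kinases all GM-BMDM values lay below all M-BMDM values, an order whose share among all genes was not computed. Atg101, a partner that steadies ATG13, had 29.1 CPM with tunicamycin and 23.5 CPM untreated in GM-BMDM, against 39.9 and 39.1 CPM in M-BMDM, and fell by 0.59 on the log2 scale. Rb1cc1, which encodes the scaffold FIP200, had 121 and 125 CPM in GM-BMDM, against 173 and 164 CPM in M-BMDM, and fell by 0.45.

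In the lipid kinase complex 4 of 6 members fell and none rose. Uvrag, the subunit that directs VPS34 to endosomes and late autophagosomes, had 73.4 CPM with tunicamycin and 70.5 CPM untreated in GM-BMDM, against 137 and 126 CPM in M-BMDM. Its log2 fold change of -0.87 ± 0.11 had the lowest edgeR adjusted p of any member in this fit, 0.00072. Pik3c3, VPS34 itself, fell by 0.41, though DESeq2 did not call it (adjusted p = 0.067), and Atg14, the subunit that brings it to the autophagosome, fell by 0.58. Ambra1, a regulator that binds Beclin 1, had 32.8 and 32.8 CPM in GM-BMDM, against 50.2 and 46.1 CPM in M-BMDM, and fell by 0.55. Becn1, which encodes Beclin 1, had 103 and 97.9 CPM in GM-BMDM, against 104 and 109 CPM in M-BMDM, and did not pass. Pik3r4, the VPS15 subunit, did not pass either.

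The receptors divided. Sqstm1 fell most, by 1.52 ± 0.23 on the log2 scale (edgeR adjusted p = 0.0018); between the untreated libraries the GM-BMDM value of 538 CPM was 0.489 of the M-BMDM value (0.481 to 0.497). Calcoco1 fell by 0.83, with 37.7 CPM with tunicamycin and 31.9 CPM untreated in GM-BMDM, against 64.3 and 58.8 CPM in M-BMDM. Nbr1 fell by 0.53. Tax1bp1 rose by 0.38 ± 0.12 (edgeR adjusted p = 0.037, and 0.065 with scaling by total counts), with 397 and 405 CPM in GM-BMDM, against 330 and 290 CPM in M-BMDM. Optn did not pass (38.1 and 44.0 CPM in GM-BMDM, against 55.1 and 43.4 CPM in M-BMDM). Both fusion genes fell: Tecpr1, a tether between autophagosome and lysosome, by 0.80 ± 0.12 (edgeR adjusted p = 0.0017), with 216 and 232 CPM in GM-BMDM, against 403 and 375 CPM in M-BMDM, and Stx17, the SNARE protein of the autophagosome, by 0.40. Stx17 had 29.8 CPM with tunicamycin and 27.3 CPM untreated in GM-BMDM, against 39.2 and 36.2 CPM in M-BMDM, and DESeq2 did not call it (adjusted p = 0.11).

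The other 6 genes that rose in GM-BMDM lay in the ATG8 family, conjugation and membrane supply. Gabarap had 589 CPM with tunicamycin and 630 CPM untreated in GM-BMDM, against 414 and 511 CPM in M-BMDM, a log2 fold change of 0.41 ± 0.12 (edgeR adjusted p = 0.032). Gabarapl1 rose by 0.47 ± 0.12 (edgeR adjusted p = 0.019), while the other 3 of the family did not pass. Atg3, the enzyme that hands ATG8 proteins to lipid, had 108 and 93.1 CPM in GM-BMDM, against 70.5 and 62.9 CPM in M-BMDM (0.59 ± 0.11, edgeR adjusted p = 0.0044). Atg7, the enzyme that activates them, had 97.0 and 104 CPM in GM-BMDM, against 66.0 and 78.7 CPM in M-BMDM, and rose by 0.48. Of the remaining 5 conjugation genes Atg16l2 fell by 0.83, and Atg5, Atg10, Atg12 and Atg16l1 did not pass.

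In membrane supply Wipi1, which reads the lipid mark, had 15.1 CPM with tunicamycin and 14.0 CPM untreated in GM-BMDM, against 9.55 and 8.45 CPM in M-BMDM. It rose by 0.69 ± 0.14 (edgeR adjusted p = 0.0058). Vmp1 rose by 0.45 ± 0.14 (edgeR adjusted p = 0.030), with 332 and 333 CPM in GM-BMDM, against 212 and 280 CPM in M-BMDM. Its relative Wipi2, the lipid carriers Atg2a and Atg2b and the vesicle protein Atg9a did not pass. None of the 4 ATG4 proteases, which trim and release ATG8 proteins, passed; Atg4a had 46.4 and 42.5 CPM in GM-BMDM, against 37.2 and 34.8 CPM in M-BMDM.

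**Figure D2:**
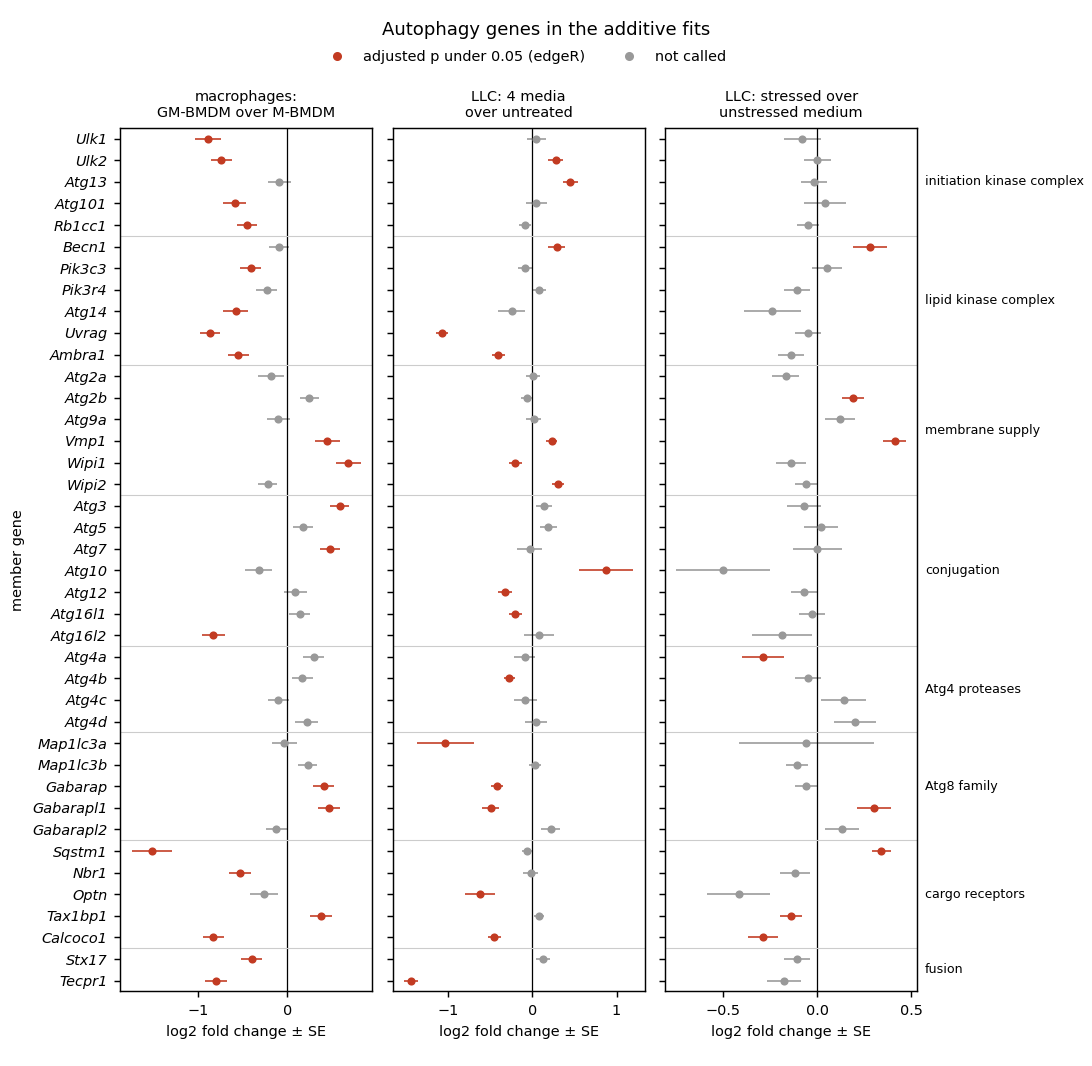
Log2 fold change of each member with its SE in 3 additive edgeR fits, with members called at an adjusted p under 0.05 in red; the horizontal scales differ between panels. Initiation and lipid kinase genes lie left of 0 in macrophages, where Sqstm1 is lowest at -1.52, and Tecpr1 (-1.44) and Uvrag (-1.07) are the lowest members in LLC cells given medium.

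In LLC cells, conditioned medium went with lower Tecpr1 and Uvrag. Tecpr1 had 31.8 CPM in stressed GM medium, 37.4 CPM in stressed M medium, 30.7 CPM in unstressed GM medium and 48.6 CPM in unstressed M medium, against 99.0 CPM in untreated cells. Uvrag had 71.9, 79.3, 74.7 and 81.9 CPM in the same 4 media, against 161 CPM in untreated cells. For both genes all 4 media lay below the untreated library. The comparisons with untreated cells rest on that 1 untreated library, which they share.

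Between pairs of libraries, unstressed GM medium gave 2 members at least 2-fold lower than in untreated cells, Tecpr1 at 0.310 of the untreated level (0.279 to 0.344) and Uvrag at 0.463 (0.431 to 0.497), and none at least 2-fold higher. Of the 11190 genes compared in LLC, 1.93% passed 2-fold downwards in that pair and 1.04% upwards. Unstressed M medium gave Tecpr1 alone, at 0.491 (0.449 to 0.536), beside 1.4% of all genes that passed 2-fold downwards and 0.5% upwards. Uvrag in M medium was just short of 2-fold, at 0.508 (0.474 to 0.544). The median member differed by -0.07 in GM medium and 0.01 in M medium, beside 0.03 and 0.02 for all genes. Tecpr1 lies on chromosome 5 from 144194442 to 144223615 and Uvrag on chromosome 7 from 98885021 to 99141141, both on the minus strand of GRCm38.

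**Figure D3:**
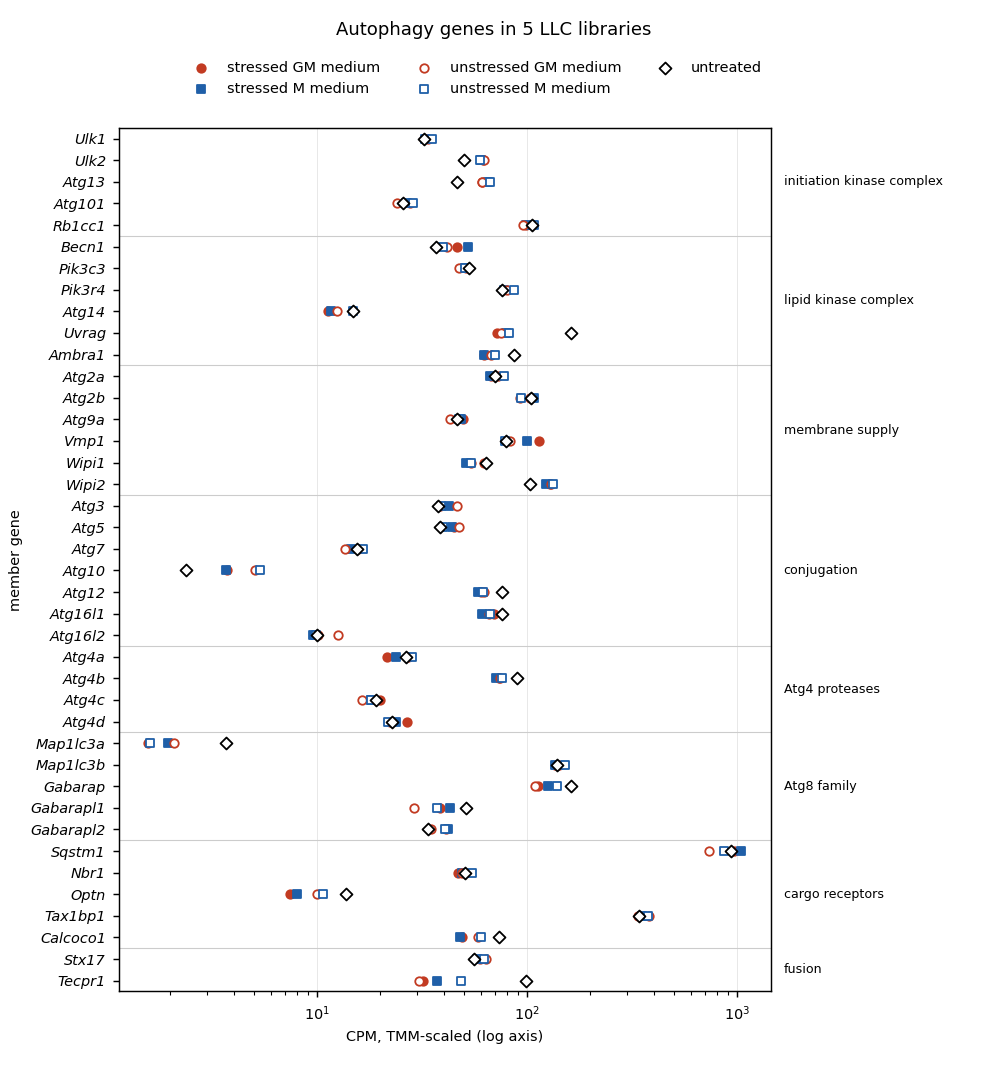
Level of each of the 40 members in the 5 LLC libraries, as TMM-scaled CPM on a log axis, grouped by role. Each symbol is 1 library; the untreated library (diamond) lies to the right of all 4 media for Tecpr1, at 99.0 CPM, and Uvrag, at 161 CPM, and to the left of them for Atg10, at 2.37 CPM.

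The additive fit over the 5 LLC libraries, whose medium effect is the mean of 4 media over the untreated library, called 12 members as fallen and 6 as risen (edgeR adjusted p under 0.05). These are 30.0% and 15.0% of the members, beside 21.9% of all genes that fell and 24.9% that rose. Tecpr1 fell by 1.44 ± 0.08 (edgeR adjusted p = 5.5e-66) and Uvrag by 1.07 ± 0.07 (edgeR adjusted p = 3.7e-56). Such low values rest on a spread taken from the 4 media and pooled over genes, with the lone untreated library assumed to vary like them. DESeq2 called 6 members as fallen and 1 as risen, all of them also called by edgeR: Tecpr1, Uvrag, Gabarap, Gabarapl1, Calcoco1 and Ambra1 fell, and Atg13 rose.

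In the ATG8 family 3 of 5 genes fell with medium. Gabarapl1 had 38.4 CPM in stressed GM medium, 43.0 in stressed M medium, 29.0 in unstressed GM medium and 37.3 in unstressed M medium, against 51.2 CPM in untreated cells (-0.49 ± 0.10, edgeR adjusted p = 3.2e-06). Gabarap had 112, 126, 109 and 139 CPM in these media, against 162 CPM in untreated cells (-0.42 ± 0.07, edgeR adjusted p = 2.3e-09). All 4 media lay below the untreated library for both. Map1lc3a fell by 1.03 ± 0.34 (edgeR adjusted p = 0.0080) from few reads, 25 to 33 in the media and 56 in untreated cells. Map1lc3b and Gabarapl2 did not pass.

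Receptors and kinases were mixed. Calcoco1 had 49.1, 48.0, 58.2 and 60.1 CPM in the media, in the order above, against 73.2 CPM in untreated cells, and fell by 0.45. Optn had 7.43, 8.04, 9.94 and 10.7 CPM, against 13.7 CPM in untreated cells, and fell by 0.62. Sqstm1 had 970, 1042, 731 and 863 CPM, against 932 CPM in untreated cells, and did not pass (-0.06 ± 0.06), with the stressed media above the untreated level and the unstressed media below it. Ambra1 fell by 0.40 and Becn1 rose by 0.29. Atg13 had 61.1, 64.8, 61.0 and 66.3 CPM in the media, against 46.3 CPM in untreated cells, and rose by 0.45 ± 0.09 (edgeR adjusted p = 1.6e-06). Ulk2 rose by 0.28, while Ulk1, Atg101 and Rb1cc1 did not pass.

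Of the conjugation genes Atg10, the enzyme that joins ATG12 to ATG5, rose by 0.88 ± 0.32 (edgeR adjusted p = 0.016), with 3.72, 3.67, 5.07 and 5.35 CPM in the media, against 2.37 CPM in untreated cells. The untreated value rests on 36 reads. Atg12 and Atg16l1 fell by 0.32 and 0.20. Atg3, Atg5, Atg7 and Atg16l2 did not pass. Among membrane supply genes Wipi2 rose by 0.31 and Vmp1 by 0.23, and Wipi1 fell by 0.20. The protease Atg4b fell by 0.27, with 73.8, 71.0, 73.9 and 76.0 CPM in the media, against 89.0 CPM in untreated cells; it overlaps the opposite-strand gene Thap4 over 3365 bases. Stx17 had 59.3, 58.0, 63.6 and 62.6 CPM, against 55.6 CPM in untreated cells, and did not pass. The remaining members, Atg4a, Atg4c, Atg4d, Nbr1, Tax1bp1, Pik3c3, Pik3r4, Atg14, Atg2a, Atg2b and Atg9a, did not pass either.

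Stressed medium differed from unstressed medium by less than 2-fold for every member. With GM medium, the members ran from -0.38 (Optn) to 0.46 (Vmp1) on the log2 scale, while 0.393% of all genes passed 2-fold upwards and 0.125% downwards. With M medium they ran from -0.45 (Atg10) to 0.39 (Becn1), while 0.411% of all genes passed 2-fold upwards and 0.143% downwards. The median member stood at -0.03 with GM medium and -0.10 with M medium.

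The additive fit called 5 members as risen with stressed medium and 3 as fallen, which is 12.5% and 7.5% of the members, beside 12.5% and 10.9% of all genes. Vmp1 had 114 CPM in stressed GM medium and 100 CPM in stressed M medium, against 83.1 CPM in unstressed GM medium and 78.8 CPM in unstressed M medium. Its log2 fold change was 0.41 ± 0.06 (edgeR adjusted p = 1.1e-08, DESeq2 adjusted p = 0.020). Sqstm1 had 970 and 1042 CPM in stressed GM and M medium, against 731 and 863 CPM in unstressed GM and M medium, and rose by 0.34 ± 0.05 (edgeR adjusted p = 6.3e-09, DESeq2 adjusted p = 2.1e-05). For both genes the stressed libraries lay above the unstressed ones, though the share of all genes in that order was not computed. No other member was called by DESeq2.

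Gabarapl1 rose by 0.30 ± 0.09 with stressed medium (edgeR adjusted p = 0.0072), which set it between the unstressed media and the untreated library. Becn1 had 46.4 and 52.5 CPM in stressed GM and M medium, against 41.5 and 39.8 CPM in the unstressed media, and rose by 0.28. Its locus overlaps the opposite-strand gene Cntd1, which stayed at 0.395 CPM or less in LLC. Atg2b, a lipid carrier, rose by 0.19. Atg4a fell by 0.29, with 21.5 and 23.7 CPM in stressed media, against 27.2 and 28.2 CPM in the unstressed media. Calcoco1 also fell by 0.29, and Tax1bp1 by 0.14. The other members did not pass: Atg4c, a further protease, had 20.0 and 18.1 CPM in stressed media, against 16.4 and 18.1 CPM in the unstressed media.

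Few members differed by the kind of donor. The donor-kind effect, GM over M, was called for 3 members (7.5%) as fallen and none as risen, beside 2.32% of all genes that fell and 2.21% that rose. Tecpr1 fell by 0.45 ± 0.09 (edgeR adjusted p = 2.3e-05), Gabarap by 0.26 ± 0.06 (edgeR adjusted p = 0.0017) and Sqstm1 by 0.17 ± 0.05 (edgeR adjusted p = 0.031). DESeq2 called none of these, and its adjusted p for Tecpr1 was 0.68. The Tecpr1 values did not overlap, with 31.8 and 30.7 CPM in GM media against 37.4 and 48.6 CPM in M media. Those of Gabarap did not overlap either, with 112 and 109 CPM in GM media against 126 and 139 CPM in M media. Those of Sqstm1 did overlap, with 970 and 731 CPM in GM media against 1042 and 863 CPM in M media. The share of all genes whose values did not overlap was not computed, so the separation is not read as support for these calls.

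**Figure D4:**
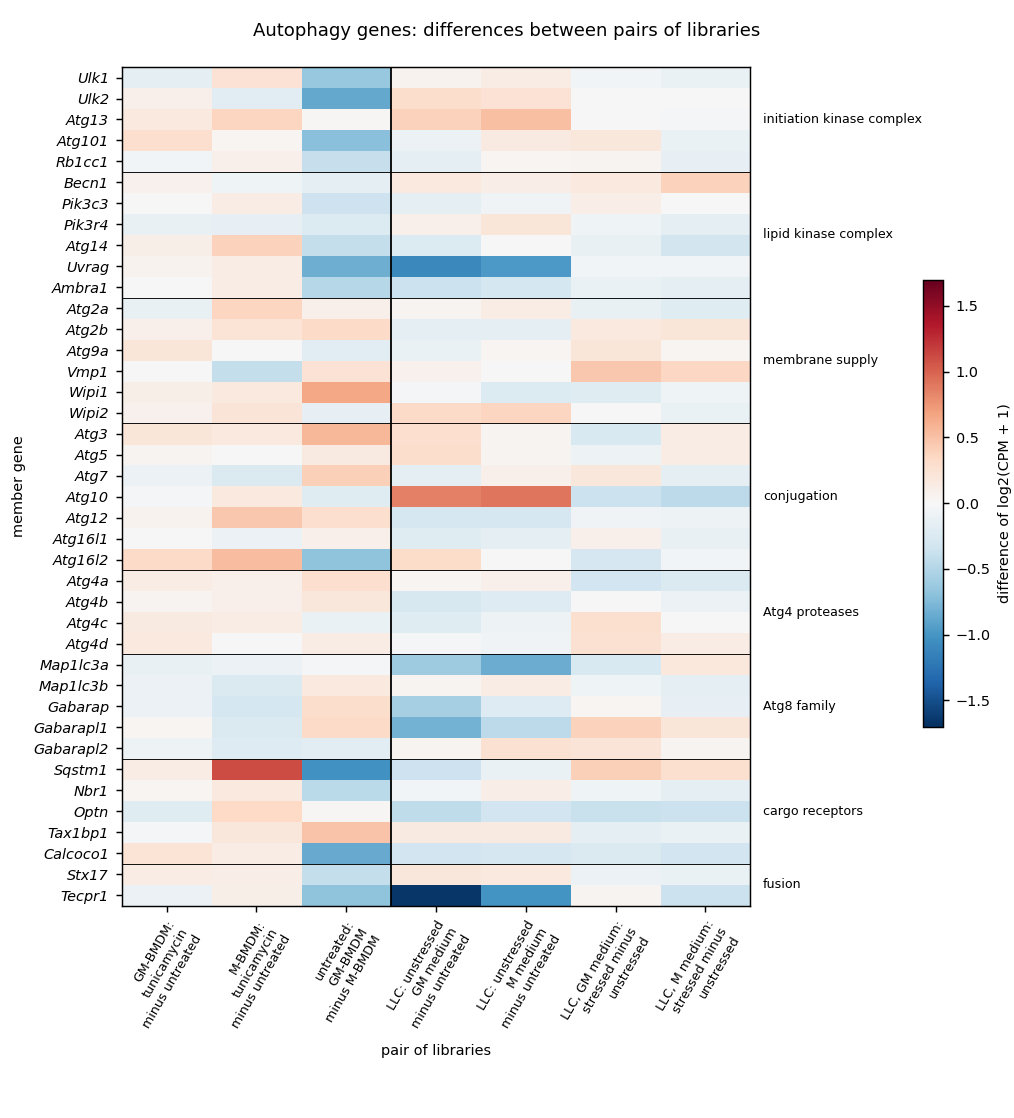
Difference of log2(CPM + 1) between 2 libraries for each member (rows, grouped by role) in 7 pairs (columns), red for higher and blue for lower in the first library of the pair. The strongest cells are Sqstm1 with tunicamycin in M-BMDM (1.11) and Tecpr1 in LLC given unstressed GM medium (-1.66); most other cells are pale.

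The rest of the pathway was read from 5 lists of genes, whose counts stand beside the shares of all genes called in the same fits: 24.9% rose and 21.9% fell with medium, 12.5% and 10.9% with stressed medium, and 25.4% and 25.0% in GM-BMDM over M-BMDM. With so few genes a list, no count is read as particular to its list. Of 24 further core genes, the tunicamycin pairs had 0 past 2-fold, and the LLC medium effect had 3 that rose and 6 that fell of 23 tested. Among those that fell were Plekhm1, an adaptor for lysosome fusion (-0.47 ± 0.08), and Vps11, a subunit of the tethering complex HOPS (-0.53 ± 0.08). The 3 that rose were Vps41 (0.29 ± 0.07), Epg5 (0.36 ± 0.10) and Ykt6 (0.17 ± 0.07). The difference of GM-BMDM over M-BMDM had 3 that rose and 7 that fell of 24. Wdfy3, a scaffold for aggregate clearance, had 130 CPM in untreated GM-BMDM, against 287 CPM in untreated M-BMDM, and fell by 1.30 ± 0.13 (edgeR adjusted p = 0.00022).

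Of 8 ER-phagy receptors, which bring parts of the ER to the autophagosome, 0 were past 2-fold in either tunicamycin pair. With medium 1 rose and 3 fell of 7 tested in LLC. Atl3 rose by 0.48, and Retreg1 (-0.32), Retreg2 (-0.40) and Tex264 (-0.19) fell. With stressed medium 0 rose and 2 fell of the 7, and Atl3 was among those that fell (-0.38 ± 0.06). Of the mitophagy genes, Bnip3 and Bnip3l, receptors on mitochondria, rose with medium by 1.11 ± 0.12 (edgeR adjusted p = 1.5e-18) and 0.71 ± 0.07 (edgeR adjusted p = 3.7e-22), and in all 4 of 7 rose and 1 fell. In GM-BMDM over M-BMDM Pink1, a kinase that gathers on damaged mitochondria, fell by 1.05 ± 0.12 (edgeR adjusted p = 0.00037). Bnip3l rose by 1.06 ± 0.11 in the same fit.

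Nutrient-sensing kinases and their partners had 3 that rose and 7 that fell with medium of 20 tested. Rragd, a GTPase that docks mTORC1 on the lysosome, had 5.16 CPM in stressed GM medium, 7.98 in stressed M medium, 2.47 in unstressed GM medium and 3.87 in unstressed M medium, against 8.89 CPM in untreated cells. It fell by 1.0 ± 0.23 with medium and rose by 1.05 ± 0.23 with stressed medium (edgeR adjusted p = 6.2e-05 and 0.00011). Flcn, a partner of that GTPase, fell by 0.54 with medium and rose by 0.27 with stressed medium. With stressed medium 5 of this list rose and none fell.

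Of 14 transcriptional regulators, tunicamycin in M-BMDM gave 5 at least 2-fold higher and 1 lower, and in GM-BMDM 2 higher and none lower. Sesn2, a sestrin that restrains mTORC1, had 98.0 CPM with tunicamycin in M-BMDM, against 19.9 CPM untreated. The 1 that was lower in M-BMDM was Sesn1, another sestrin, with a log2 difference of -2.08. Ddit3 had 194 CPM with tunicamycin and 17.0 CPM untreated in M-BMDM, an 11.4-fold ratio (10.5 to 12.4), and Atf4, the factor that induces it, had 614 and 160 CPM. Nfe2l2, which encodes the p62-linked antioxidant factor NRF2, had 723 CPM with tunicamycin and 480 CPM untreated in M-BMDM, and 381 and 444 CPM in GM-BMDM. In LLC 5 of the 14 rose with medium and 4 fell.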

How the data were processed

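RNA sequencing of 9 mouse libraries, with total RNA taken by Trizol, was analysed from 2 deposited tables (LLC and BMDM). Both hold read counts per gene and FPKM, per the file headers. FPKM as deposited matched count per length and total count within 5e-07 (LLC) and 4.9e-06 (BMDM) and were used to compare genes within a library. The LLC table has line-end characters inside its last column's cells, so the automatic unit check read its deposited count and FPKM columns as other values; that counts were whole and that FPKM matched them was tested separately. Cutadapt 1.15, HISAT2 and TopHat2 2.1.0 stand in the submitters' processing notes, with no role or order; the sources used here give neither counter, strand setting nor build. Of 21817 LLC gene IDs in GENCODE M21 (GRCm38), 21617 (99.1%) had equal coordinates.

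CPM comes from the deposited counts, scaled by TMM within each table, so levels are compared within a table only. Genes with a mean of at least 1 CPM were compared, 11190 in LLC and 11049 in BMDM. Where all libraries of a group lay above or below those of another, the share of all genes so ordered was not computed. Differences of 2 libraries, on log2(CPM + 1), have no p-value; fold intervals are exact Clopper-Pearson at 95% and cover counting error only. The additive edgeR 4.0.16 fits (R 4.3.3) leave 1 residual degree of freedom for each gene, with moderated dispersion, and were tested on simulated data; DESeq2 1.42.0 was the alternative. The fitted spread was 11.5% in BMDM and 4.28% in LLC (coefficient of variation). The p-values test the effects against the departure from additivity between single libraries, not against spread between cultures. Promoters are from RefSeq (GRCm38.p6), with 34 of 40 members matched. TGACNNNGC and TATAAA were added as motifs after values were seen. Members and lists were chosen with earlier results of these data known. Per role group and table, the text names at least the members furthest from 0; all 40 are accounted for.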

Additional observations from a re-analysis of the deposited data

Results flagged for a closer look

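Members whose tunicamycin differences pointed opposite ways in the kinds of macrophage were looked at again. Optn differed by -0.20 on the log2 scale in GM-BMDM and by 0.34 in M-BMDM, a difference of -0.54 (GM minus M). Its levels were 38.1 CPM with tunicamycin and 44.0 CPM untreated in GM-BMDM, against 55.1 and 43.4 CPM in M-BMDM. Atg2a differed by -0.13 in GM-BMDM and by 0.37 in M-BMDM, a difference of -0.50. Its levels were 52.2 CPM with tunicamycin and 57.2 CPM untreated in GM-BMDM, against 70.3 and 54.0 CPM in M-BMDM. With 1 library per group neither difference was tested; the counting intervals of all 4 ratios leave out 1. These are 2 of 40 members (5.0%) with opposite signs, such intervals and a gap of at least 0.5, beside 3.11% of all 11049 genes by the same rule. Sqstm1 had the largest gap of any member, -0.98, with both kinds above 0. Of all genes compared, 0.208% had a gap of at least 1 towards GM-BMDM and 1.38% towards M-BMDM, and no member reached 1.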

How the results depend on the processing

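DESeq2 in place of edgeR gave 1 member that rose and 6 that fell with medium in LLC, 2 that rose and 0 that fell with stressed medium, and 0 that fell in GM over M medium. Scaling by total counts gave 5 members that fell with stressed medium. A log2 difference of 0.5 in place of 1 gave 2 members higher with tunicamycin in M-BMDM, and 2 higher and 8 lower in untreated GM-BMDM over M-BMDM. It gave 1 higher and 5 lower in unstressed GM medium over untreated LLC, and 2 higher and 3 lower in unstressed M medium. A pseudocount of 0.25 gave 1 member higher in unstressed GM medium, and 1 higher and 2 lower in unstressed M medium; the higher member in each was Atg10, chosen for mention after its value was seen. Leaving out the filter on low counts, or the untreated library, moved no count of members by over 1.5 times. No result changed direction under these settings. No paired analysis was possible because each group holds 1 library, and for the same reason the untreated LLC library was the only one that could be left out with a residual for the fit. Fitted calls rest on 1 residual degree of freedom, and in LLC on a spread pooled fully over genes. Low LLC genes such as Map1lc3a and Atg10 rest on 25 to 83 reads per library.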
